A study of Rattus norvegicus with 12 samples.

Results

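The genes described here encode the proteasome, the protease complex that breaks down ubiquitin-tagged proteins in the cytosol and nucleus. They were measured in epididymal white fat of 24-week-old rats. Members were found by their platform symbols, the families Psma to Psmg followed by a number, and this rule matched 66 probe sets. Of these, 2 belong to genes that are not subunits (Psmc3ip and Psme3ip1). A further 6 carry several symbols, so Psmb6 and Psme3, which are found only among those 6, are not reported. The remaining 58 probe sets measure 44 subunit genes, of the 14217 genes that the platform names with 1 symbol. Each gene is represented by its brightest probe set, and all 44 lay above the filter on dim signals, the dimmest being Psmg3 at the 63.8th percentile of the array.

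There are 3 groups of 4 arrays, each labelled as a biological replicate, on 12 Affymetrix rat arrays. The CR group is Wistar rats without the transgene (written Jcl:Wistar (-/-) in the labels) that were held to 70% of the energy intake from 6 weeks of age. The Tg group is dwarf rats, heterozygous for a transgene that makes antisense RNA to growth hormone, with free access to food. The AL group is Wistar rats without the transgene, fed ad libitum. All rats were given food 30 minutes before dark and were killed the next morning after the lights came on. Groups rest on titles and source names, because the genotype field reads (-/-) on all 12 arrays, Tg included; the promoter and expressing cells of the transgene are not given in the sources used here. A code in the sample descriptions differs between the groups, and if it marks a working session, session and group cannot be told apart.

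The proteasome has a barrel-shaped core of alpha and beta rings, and 3 of the beta subunits cut peptide bonds. A cap on the end of the barrel binds ubiquitin chains, removes them, and unfolds the substrate with a ring of ATPases. In cells exposed to interferon, and constitutively in many immune cells, the catalytic subunits are replaced in newly built cores by inducible ones, which gives the immunoproteasome. Dedicated chaperones assemble core and cap, and separate activators and an inhibitor bind the ends of the core. The transcription factor Nfe2l1, studied in brown fat of mice among other tissues, raises subunit transcription when proteasome activity is short.

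The arrays differed in quality and in the tissue they carried. The column medians of the deposited intensities lay between 222.6 and 239.4. The background value deposited with the z-scores came to 58.5 on CR3 and to between 34.5 and 44.1 on the rest. On CR3 5.71% of probes were blank, and elsewhere 0.325% to 1.89%. Adipocyte markers stood between the 93.9th and the 99.99th percentile on every array. Spermatid markers, 8 of which were measured, were high on CR1, Tg2, AL1 and AL2 (mean log2 10.64, 12.29, 11.81 and 12.95) and stood at 6.31 to 7.76 on the other 8 arrays; their summed intensity was 987 to 20486 in CR, 700 to 67347 in Tg and 842 to 94728 in AL. Duct epithelium markers, 9 in number, were high on CR2, CR4, Tg2, Tg4 and AL3, with group sums of 1798 to 17579 in CR, 2661 to 19844 in Tg and 1504 to 11835 in AL. Markers of the caput epididymis were high on CR4 and those of the exocrine pancreas on Tg1.

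Promoter windows of the 4 core subunits that form the 2 exchange pairs measured in full are shown because they let the inducible subunits be read against the constitutive ones they replace. They run from 250 bases before to 50 bases after the annotated start, on the gene's strand, from RefSeq (GRCr8). Capitals mark the motifs searched on both strands, which are the interferon-stimulated response element (ISRE: TTTC, any 2 bases, TTTC), TGACNNNGC (the antioxidant response element core), TTCNNNGAA (the gamma-activated site) and CCAAT; no other motif is marked. The windows are those of Psmb10 (chr19:50743243-50743542, minus strand), Psmb7 (chr3:42827421-42827720, minus strand), Psmb8 (chr20:4656982-4657281, minus strand) and Psmb5 (chr15:32047330-32047629, minus strand).
Psmb10: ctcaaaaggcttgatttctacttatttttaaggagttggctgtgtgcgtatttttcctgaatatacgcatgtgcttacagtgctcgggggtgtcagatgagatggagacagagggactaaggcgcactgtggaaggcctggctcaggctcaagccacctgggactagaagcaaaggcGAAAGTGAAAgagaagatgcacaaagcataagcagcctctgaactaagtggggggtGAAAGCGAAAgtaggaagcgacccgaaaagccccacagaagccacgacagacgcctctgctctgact
Psmb7: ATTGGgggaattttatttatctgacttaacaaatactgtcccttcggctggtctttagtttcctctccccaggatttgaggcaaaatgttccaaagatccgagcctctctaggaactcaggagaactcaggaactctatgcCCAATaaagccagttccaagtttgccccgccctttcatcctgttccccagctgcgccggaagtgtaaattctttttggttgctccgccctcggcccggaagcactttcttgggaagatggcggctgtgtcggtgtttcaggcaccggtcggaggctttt
Psmb8: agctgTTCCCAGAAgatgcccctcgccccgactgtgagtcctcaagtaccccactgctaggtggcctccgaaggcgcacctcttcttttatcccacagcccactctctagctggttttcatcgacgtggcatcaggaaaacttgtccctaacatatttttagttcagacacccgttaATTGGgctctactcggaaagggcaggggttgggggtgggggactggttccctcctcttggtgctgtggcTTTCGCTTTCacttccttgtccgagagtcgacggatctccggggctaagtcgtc
Psmb5: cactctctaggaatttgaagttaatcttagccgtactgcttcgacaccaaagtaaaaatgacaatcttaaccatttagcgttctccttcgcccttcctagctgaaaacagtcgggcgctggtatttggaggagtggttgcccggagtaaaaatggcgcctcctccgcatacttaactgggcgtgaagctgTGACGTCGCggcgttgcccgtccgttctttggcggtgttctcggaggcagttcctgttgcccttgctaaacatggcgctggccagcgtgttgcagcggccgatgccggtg
The inducible Psmb10 holds 2 ISRE matches and Psmb8 holds 1, together with a gamma-activated site and CCAAT on the opposite strand. Psmb7 holds CCAAT once on each strand and Psmb5 the antioxidant response element core. These 4 windows do not stand for their classes. The inducible Psmb9, whose window is not shown, holds CCAAT but no ISRE match and no gamma-activated site. The constitutive Psma4 and Psmb3 hold the ISRE letters.

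Across all 44 genes no subunit passed the test in CR against AL (adjusted p under 0.05 with limma), where 1.45% of the 23281 probe sets did. The point estimates were small and mostly above 0. In CR against AL, 32 of the 44 (72.7%) lay above 0, against 49.9% of all probe sets, with a median log2 difference of 0.08, against -0.0008 over all probe sets. The estimates ran from -0.36 to 0.33, and the 95% intervals of the 44 genes stayed between -0.84 and 0.64 on the log2 scale, which corresponds to 0.559-fold and 1.56-fold. At an unadjusted p under 0.05, 8 of 44 (18.2%) were higher in CR and 0 lower, against 7.19% and 9.49% of all probe sets. Over the other settings tried, 29 to 35 genes lay above 0. Every CR array was above every AL array for 8 genes (Psmb1, Psmb3, Psmb5, Psmb7, Psmc4, Psmd8, Psmd5 and Psmg3) and below for 0, against 4.30% and 5.61% of all probe sets; the 8 became 7 to 18 in other settings and 14 without AL3. Whether the list differs from other genes was not tested. Bulk fat also cannot tell fewer cells of a type from less RNA per cell.

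**Figure D1:**
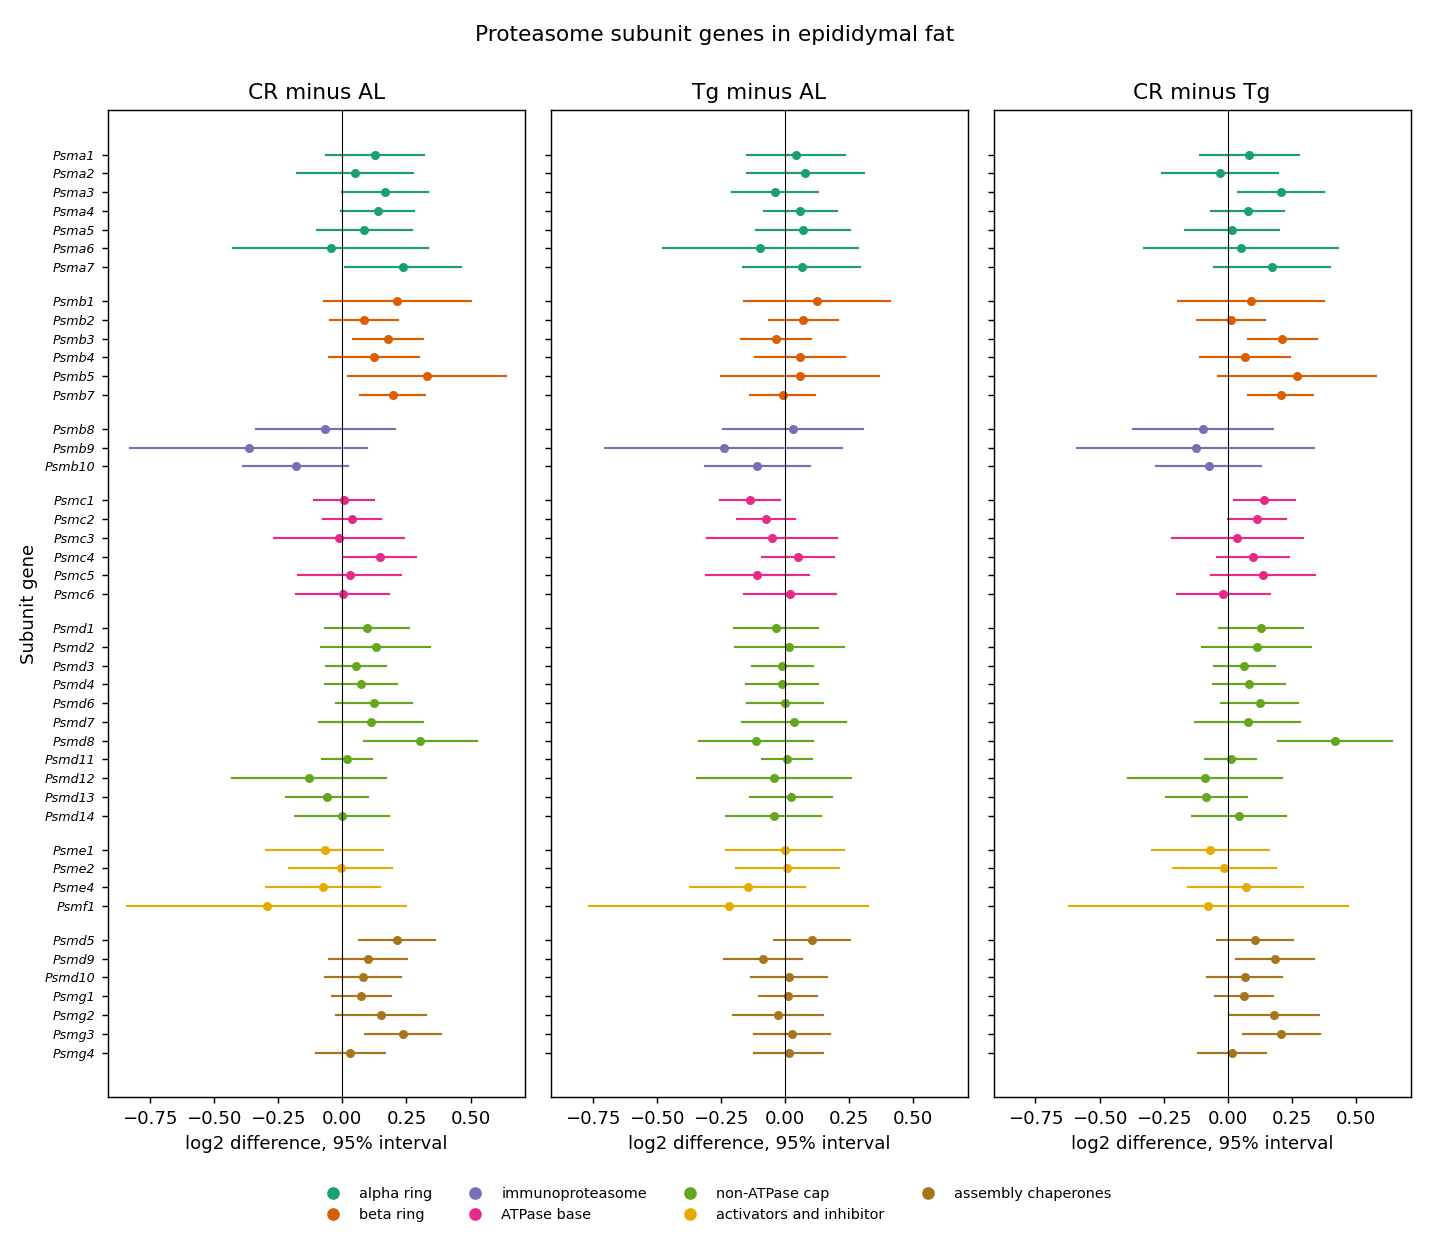
Log2 difference of each of the 44 subunit genes (dots) with its 95% interval (bars), for CR minus AL, Tg minus AL and CR minus Tg, coloured by role. Estimates in the CR minus AL panel run from -0.36 to 0.33, with most dots of the core and chaperones right of 0 and all 3 immunoproteasome dots left of it.

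The alpha ring, which gates entry to the core, had 6 of 7 genes above 0 in CR against AL, with a median of 0.13. Its largest positive difference was that of Psma7, which stood at 12.11, 12.20, 12.19 and 12.03 (log2 intensity) in CR fat, against 11.82, 11.85, 12.03 and 11.88 in AL fat, a difference of 0.24 ± 0.10 (SE, adjusted p = 0.279). The lone negative one was Psma6 at -0.05 ± 0.17 (SE, adjusted p = 0.914), which turned to 0.11 (adjusted p = 0.762) without AL2. The highest arrays of Psma6 were Tg2 and AL2.

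The beta ring holds the catalytic sites. Its 6 constitutive genes (Psmb1 to Psmb5 and Psmb7) all had a CR minus AL difference above 0, with a median of 0.19, and 4 of them had CR arrays wholly above the AL arrays, an order found in 4.30% of all probe sets. None passed the test (adjusted p from 0.119 to 0.519).

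Psmb7, the subunit with trypsin-like activity, had 11.87, 11.84, 11.90 and 11.86 in CR fat, 11.64, 11.62, 11.69 and 11.71 in Tg fat, and 11.60, 11.61, 11.80 and 11.68 in AL fat. Every CR array lay above every Tg and every AL array. The difference was 0.20 ± 0.06 (SE, adjusted p = 0.119) from AL and 0.21 ± 0.06 (SE, adjusted p = 0.110) from Tg.

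Psmb3, a non-catalytic subunit of the ring, had the same order. It stood at 11.59, 11.65, 11.62 and 11.58 in CR fat, at 11.32, 11.39, 11.35 and 11.53 in Tg fat, and at 11.36, 11.37, 11.52 and 11.48 in AL fat. CR arrays again did not overlap with either other group. The difference was 0.18 ± 0.06 (SE, adjusted p = 0.183) from AL and 0.21 ± 0.06 (SE, adjusted p = 0.122) from Tg.

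Psmb5, the subunit with chymotrypsin-like activity, had the largest estimate of all members in CR against AL. It stood at 12.24, 12.28, 12.89 and 12.33 in CR fat, 12.02, 12.46, 12.03 and 12.15 in Tg fat, and 12.04, 12.16, 12.12 and 12.10 in AL fat. Array CR3 set the top of that range. The difference from AL was 0.33 ± 0.14 (SE, adjusted p = 0.268), and 0.18 (adjusted p = 0.437) without CR3. A much dimmer Psmb5 probe set (mean log2 6.80, against 12.23 for the brightest) had the opposite sign, -0.51. The mean of the gene's tested probe sets gave -0.09 (adjusted p = 0.772), and another probe set (6.07) lay below the filter. The direction thus depends on whether the much dimmer probe set is counted.

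**Figure D2:**
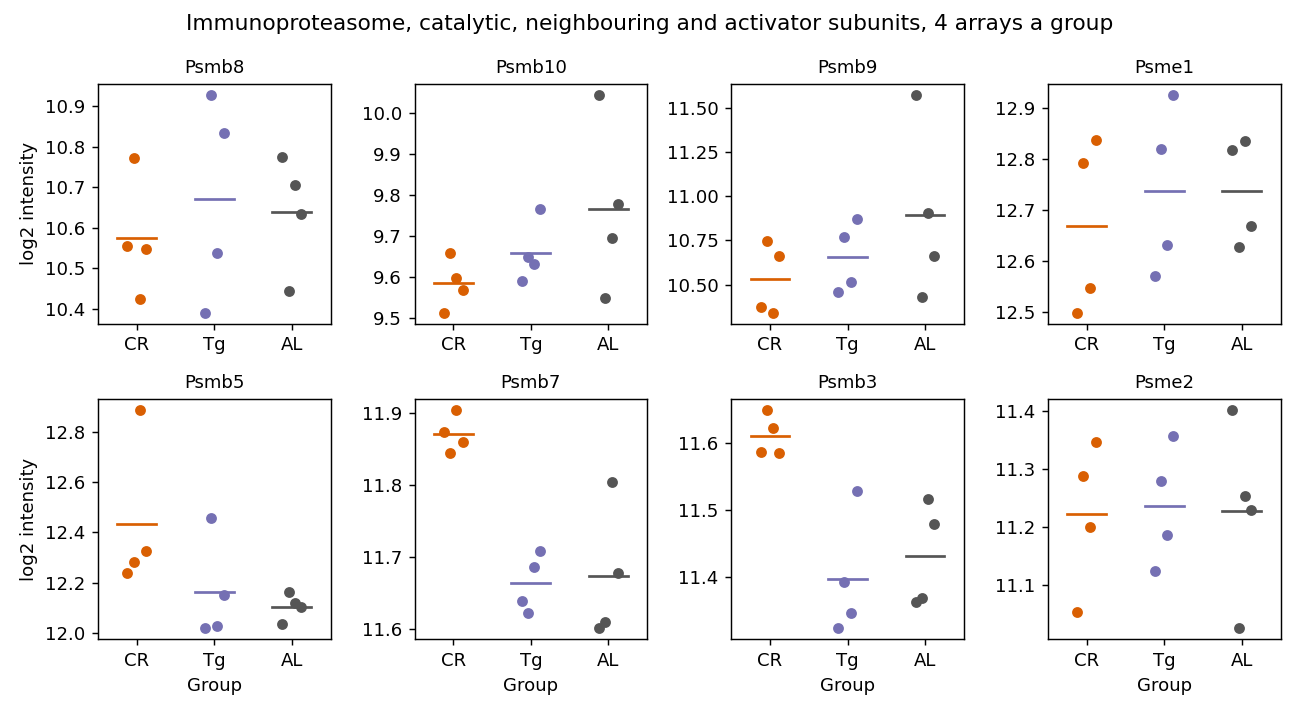
Log2 intensity of the inducible (Psmb8, Psmb10, Psmb9), constitutive (Psmb5, Psmb7, Psmb3) and activator (Psme1, Psme2) subunits, with 1 dot per array and a bar at the group mean. CR dots of Psmb7 and Psmb3 lie above all Tg and AL dots, whereas the 3 groups overlap for the inducible and activator genes.

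The 3 immunoproteasome genes had CR minus AL differences below 0 (median -0.18, and -0.09 without AL1), and none passed the test. Psmb8, which takes the place of Psmb5, had 10.56, 10.77, 10.42 and 10.55 in CR fat, 10.39, 10.93, 10.54 and 10.83 in Tg fat, and 10.77, 10.44, 10.71 and 10.63 in AL fat. The groups overlapped, and the difference of CR from AL was -0.07 ± 0.12 (SE, adjusted p = 0.818).

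Psmb9, which takes the place of Psmb6, had 10.37, 10.75, 10.34 and 10.66 in CR fat, 10.46, 10.77, 10.52 and 10.87 in Tg fat, and 11.58, 10.43, 10.90 and 10.66 in AL fat. The high value came from AL1 alone. Its difference from AL was -0.36 ± 0.21 (SE, adjusted p = 0.416), and -0.14 (adjusted p = 0.747) without AL1. Tap1, the peptide transporter that neighbours Psmb9, was also highest on AL1, at 10.01, with 8.70 to 9.24 on the other arrays.

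Psmb10, which takes the place of Psmb7, had 9.51, 9.66, 9.60 and 9.57 in CR fat, 9.59, 9.65, 9.63 and 9.76 in Tg fat, and 10.04, 9.55, 9.69 and 9.78 in AL fat. The difference from AL was -0.18 ± 0.09 (SE, adjusted p = 0.361), and -0.09 (adjusted p = 0.662) without AL1. On this array too the gene was highest.

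The balance of an inducible subunit over the constitutive one it replaces was read within each array, as a log2 ratio set to 0 at the AL mean, and is given without a test because the pairs were picked with values known. For Psmb10 over Psmb7 the ratio was -0.45, -0.28, -0.40 and -0.38 in CR fat (mean -0.38 ± 0.07 SD), -0.14, -0.07, -0.15 and -0.04 in Tg fat (mean -0.10 ± 0.06 SD), and 0.35, -0.15, -0.20 and 0.01 in AL fat (SD 0.25). All CR arrays lay below all Tg and AL arrays, and how often gene pairs have this order was not counted. AL1, at 0.35, raises the AL mean that sets the 0, and the other AL arrays stood at -0.20 to 0.01. For Psmb8 over Psmb5 the ratio was -0.22, -0.05, -0.9995 and -0.31 in CR fat (mean -0.40 ± 0.42 SD), with the lowest on CR3. This ratio overlapped with Tg fat (-0.16 to 0.15) and AL fat (-0.25 to 0.20). The sign of this ratio depends on the Psmb5 probe set. The dimmer one (mean log2 6.80, against 12.23 for the brightest) was an alternative added after seeing the data. With it the ratio averaged 0.44 ± 0.34 in CR fat (SD, 0.06 to 0.88) and 0.12 ± 0.20 in Tg fat (SD), with AL fat at -0.59 to 0.29.

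**Figure D3:**
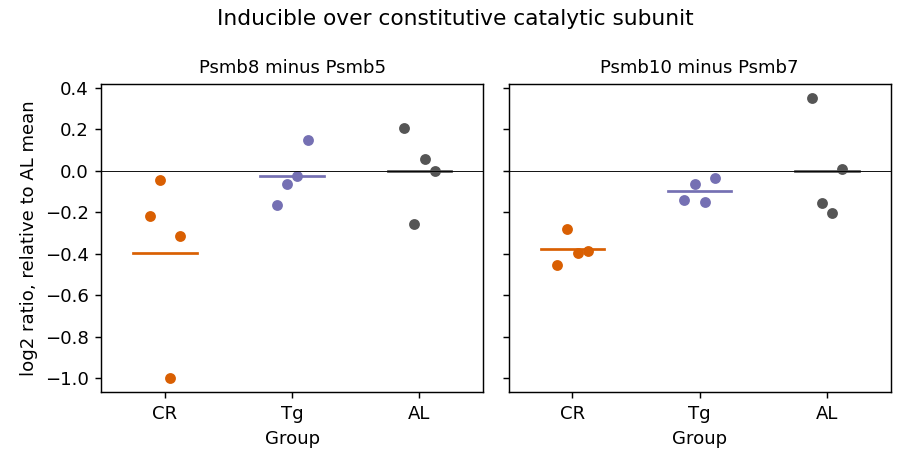
Within-array log2 ratio of an inducible to the constitutive catalytic subunit it replaces, relative to the AL mean, with 1 dot per array and a bar at the group mean. For Psmb10 over Psmb7 the CR dots (mean -0.38) sit below every Tg and AL dot, with AL1 at 0.35. For Psmb8 over Psmb5 the groups overlap and CR3 stands at -0.9995. The dots use the brightest Psmb5 probe set (mean log2 12.23). With the dimmer one (mean log2 6.80) the CR mean is 0.44.

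Immune cell markers were lower in the CR group, and by a smaller median in the Tg group. Of 16 leukocyte and macrophage genes, 14 were below 0 in CR against AL, 7 fell by the test and 0 rose (median -0.44), Cd68 by 0.64 (adjusted p = 0.00678) and the leukocyte phosphatase Ptprc by 0.74 (adjusted p = 0.00678). Over all probe sets 338 (1.45%) passed in this comparison. Without the 4 arrays high in spermatid markers (CR1, Tg2, AL1 and AL2) 2 passed, with fewer arrays left to test. Over the other settings tried the Ptprc difference ran from -0.81 to -0.63 and that of Cd68 from -0.79 to -0.58. Ptprc passed in 24 of 25 of them, Cd68 in 23 and Csf1r, another of the genes that fell, in 8. In Tg against AL 12 of the 16 genes were below 0 and 0 passed (median -0.16). The summed intensity of the 16 genes was 23771 to 28523 in CR, 28953 to 36112 in Tg and 32496 to 36518 in AL. Leukocytes carry the inducible subunits constitutively, and the part of these cells in the values above was not tested. Of 13 genes of antigen processing and interferon response, all were below 0 in CR against AL, where 49.9% of all probe sets lay above 0. None of the 13 passed the test (median -0.18). Examples were the transporter Tap2 at -0.28 (adjusted p = 0.404) and the factor Irf1 at -0.33 (adjusted p = 0.427). Without AL1 these were -0.17 (adjusted p = 0.684) for Tap2 and -0.11 (adjusted p = 0.763) for Irf1. Tap1, Tap2, Tapbp, Nlrc5, Irf1 and Gbp2 were each highest on AL1, and the rest of the list on other arrays.

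In the ATPase ring that unfolds substrates, 5 of 6 genes lay above 0 in CR against AL, with a median of 0.02. Psmc4 was the furthest above 0, at 11.13, 11.24, 11.08 and 11.21 in CR fat and 10.94, 11.05, 11.08 and 11.004 in AL fat, with a difference of 0.15 ± 0.06 (SE, adjusted p = 0.276). Psmc3 was the furthest below, at -0.01 ± 0.12 (SE, adjusted p = 0.964).

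The non-ATPase subunits of the cap had 8 of 11 genes above 0 in CR against AL, with a median of 0.07. Psmd8, a lid subunit, had the largest difference. It stood at 11.92, 11.63, 12.13 and 11.69 in CR fat, 11.39, 11.54, 11.43 and 11.34 in Tg fat, and 11.61, 11.59, 11.51 and 11.45 in AL fat. Each CR array was above each Tg and AL array, most of all CR3. The difference was 0.30 ± 0.10 (SE, adjusted p = 0.167) from AL. Psmd12, another lid subunit, had the lowest estimate, -0.13 ± 0.14 (SE, adjusted p = 0.658), which turned to 0.03 (adjusted p = 0.908) without CR3. Among others in this class the ubiquitin receptor Psmd4 was at 0.07 (adjusted p = 0.606) and the deubiquitinase Psmd14 at -0.0012 (adjusted p = 0.996). Dimmer Psmd14 probe sets were at 0.16 (adjusted p = 0.268) and 0.31 (adjusted p = 0.362), so the estimate of this gene depends on the probe set.

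Activators and the inhibitor Psmf1 were at or below 0 in CR against AL (0 of 4 above 0, median -0.07). Psme1, a subunit of the interferon-inducible activator, had 12.50, 12.79, 12.55 and 12.84 in CR fat, 12.57, 12.82, 12.63 and 12.93 in Tg fat, and 12.82, 12.63, 12.84 and 12.67 in AL fat. Its partner Psme2 had 11.05, 11.29, 11.20 and 11.35 in CR fat, 11.12, 11.28, 11.19 and 11.36 in Tg fat, and 11.40, 11.03, 11.25 and 11.23 in AL fat. Both overlapped over the 3 groups, at -0.07 (adjusted p = 0.767) and -0.0054 (adjusted p = 0.983) in CR against AL. Psmf1 was at -0.29 ± 0.25 (SE, adjusted p = 0.582), and at -0.10 (adjusted p = 0.875) without AL2. Over the other settings tried its estimate ran from -0.46 to 0.04. Psme2 was the nearest to 0 in this class.

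The assembly chaperones were all above 0 in CR against AL (7 of 7, against 49.9% of all probe sets; median 0.10), and 2 of them had no overlap, against 4.30%. Psmg3, a chaperone of the alpha ring, stood at 8.98, 8.97, 9.07 and 8.89 in CR fat, 8.74, 8.73, 8.71 and 8.89 in Tg fat, and 8.78, 8.62, 8.79 and 8.77 in AL fat, with a difference from AL of 0.24 ± 0.07 (SE, adjusted p = 0.112). Psmd5, which helps to assemble the ATPase ring, stood at 10.10, 10.10, 10.14 and 10.09 in CR fat and 9.84, 9.76, 10.002 and 9.98 in AL fat, with a difference of 0.21 ± 0.07 (SE, adjusted p = 0.148). The smallest was that of Psmg4, 0.03 ± 0.06 (SE, adjusted p = 0.821).

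In Tg against AL, 0 of 44 genes passed the test and 0% of all probe sets did by limma; at an unadjusted p under 0.05 the counts over all probe sets were 567 higher (2.44%) and 818 lower (3.51%), and with the z-scores 2 probe sets passed. At that unadjusted p 0 members were higher and 1 (2.27%), Psmc1, lower. The subunits were spread around 0, with 23 of 44 above it (52.3%, against 48.1% of all probe sets) and a median of 0.0045. Adjusted p-values ran from 0.792 to 0.998. Psmc1, a subunit of the ATPase ring, had 11.31, 11.24, 11.26 and 11.19 in Tg fat and 11.31, 11.42, 11.36 and 11.46 in AL fat, and was lower in Tg by -0.14 ± 0.05 (SE, adjusted p = 0.792). Psmc2, in the same ring, had 12.38, 12.40, 12.37 and 12.42 in Tg fat and 12.47, 12.53, 12.44 and 12.42 in AL fat, with a difference of -0.07 ± 0.05 (SE, adjusted p = 0.827). These were the 2 of 44 genes (4.55%) with every Tg array below every AL array, against 2.61% of all probe sets, with margins too small to see at 2 decimals; the 2 became 0 to 5 in other settings, and 0 genes had the opposite order, against 1.78%.

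CR was also set against Tg, which tests the difference of both groups directly, while the comparisons with AL share the same AL arrays. Here 0 of 44 passed, against 1.25% of all probe sets (291, and 116 with the replicate number as a block), and 34 of 44 (77.3%) lay above 0, against 48.3%. The median was 0.07. With an unadjusted p under 0.05, 9 of 44 (20.5%) were higher in CR and 0 lower, against 8.0% and 8.89% of all probe sets. Every CR array was above every Tg array for 7 genes (Psma3, Psmb3, Psmb7, Psmc1, Psmc2, Psmd8 and Psmg3; 15.9%, against 5.03% of all probe sets, with Psmg3 apart by less than 2 decimals show) and below for 0, against 6.10%; the 7 became 5 to 18 in other settings and 12 without CR3. The lowest adjusted p was that of Psmd8, whose CR minus Tg difference was 0.42 ± 0.10 (SE, 95% interval 0.20 to 0.64, adjusted p = 0.0755), and 0.32 (adjusted p = 0.134) without CR3. It passed in 3 of 26 other settings. Psmc1 was higher in CR than in Tg by 0.14 (adjusted p = 0.209), with 11.44, 11.40, 11.36 and 11.37 in CR fat.

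**Figure D4:**
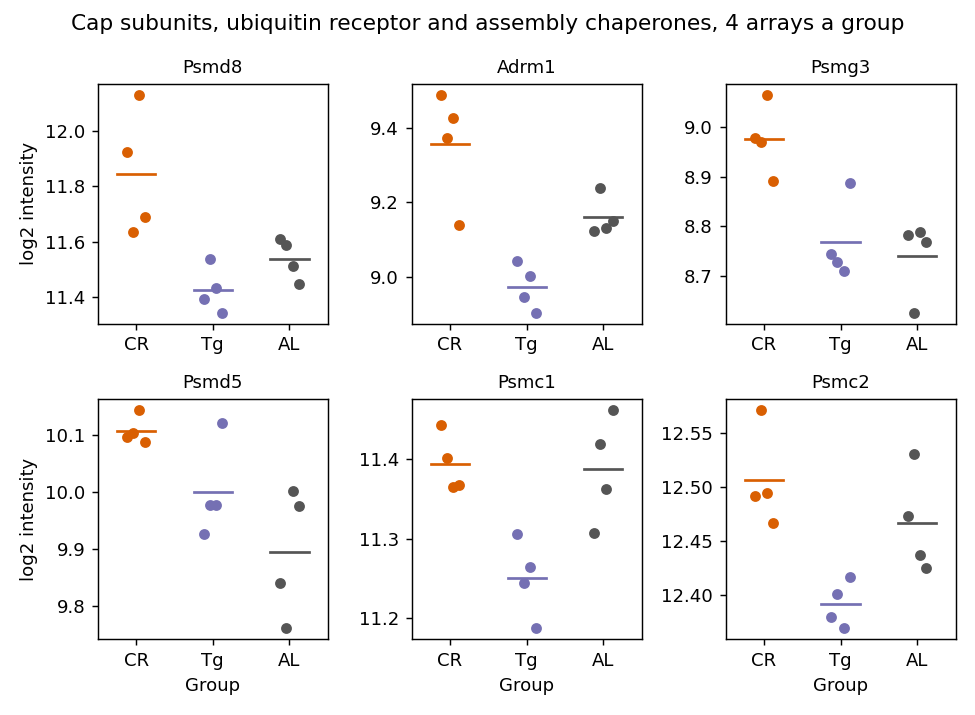
Log2 intensity of Psmd8, the ubiquitin receptor Adrm1, the chaperones Psmg3 and Psmd5, and the ATPases Psmc1 and Psmc2, with 1 dot per array and a bar at the group mean. Psmd8 has its CR dots above the Tg and AL dots, and Psmc1 and Psmc2 have their Tg dots at the bottom, with the CR and AL dots above.

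Partners of the proteasome were read from lists chosen with earlier results of these data known. Of 11 regulators and partners measured, 0 passed the test in CR against AL or in Tg against AL, against 1.45% and 0% of all probe sets. In CR against Tg 1 of the 11 rose, where 1.25% of all probe sets passed in either direction. This was Adrm1, the ubiquitin receptor of the cap that has no Psm symbol. It stood at 9.49, 9.37, 9.43 and 9.14 in CR fat, 9.04, 8.94, 9.002 and 8.90 in Tg fat, and 9.12, 9.24, 9.13 and 9.15 in AL fat, so every CR array was above every Tg array and the Tg arrays were below all AL arrays. Taken singly, these orders were found in 5.03% and 2.61% of all probe sets. The difference of CR from Tg was 0.38 ± 0.08 (SE, adjusted p = 0.0400). It did not pass with the replicate number as a block (adjusted p = 0.0660) and passed in 6 of 26 other settings. Without the 4 arrays high in spermatid markers, which leaves fewer arrays to test, 0 probe sets passed in this comparison. Nfe2l1, the factor that drives subunit genes, stood at 10.50, 10.50, 10.63 and 10.45 in CR fat, 10.41, 10.24, 10.39 and 10.28 in Tg fat, and 10.73, 10.54, 10.70 and 10.79 in AL fat. Every Tg array was below every CR and AL array, the same orders as for Adrm1 (singly 5.03% and 2.61% of all probe sets). The differences were -0.17 (adjusted p = 0.260) in CR against AL, -0.36 (adjusted p = 0.398) in Tg against AL and 0.19 (adjusted p = 0.204) in CR against Tg, and with the mean of the gene's probe sets -0.07, -0.27 and 0.21 in the same order.

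A list of ubiquitin-conjugating enzymes, shuttle receptors and the unfoldase Vcp had 11 of its 17 genes measured and 0 past the test in any comparison. Vcp, which extracts ubiquitinated proteins from membranes and complexes, was at 0.34 (adjusted p = 0.140) in CR against AL. The shuttle receptor Rad23b was at 0.19 (adjusted p = 0.124), and Ubqln4, another shuttle, was at -0.25 (adjusted p = 0.163).

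The median within-group SD of the subunit genes was 0.11 on the log2 scale, against 0.18 over all probe sets tested. These values are not matched for signal. Each subunit gene is represented by its brightest probe set, and the dimmest, Psmg3, lay at the 63.8th percentile of the array. The probe sets tested also include dimmer ones. Whether subunit genes vary less than other genes of similar signal was not tested. The genes with the largest within-group SD were Psmf1 (0.39), Psmb9 (0.33), Psma6 (0.27), Psmb5 (0.21) and Psmd12 (0.21). CR3, the array with the highest background, was the highest array for 11 of the 44 genes and the lowest for 6.

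Psmf1, the inhibitor of the core, was higher on the 4 arrays with high spermatid markers than on any other. It stood at 10.30, 10.19, 9.90 and 10.07 in CR fat, 9.95, 10.82, 9.86 and 10.13 in Tg fat, and 10.62, 10.9996, 10.12 and 9.91 in AL fat. The 8 arrays low in these markers had 9.86 to 10.19. Psma6 stood at 12.86 on CR1, 13.19 on Tg2, 12.77 on AL1 and 13.29 on AL2, with 12.49 to 12.80 on those 8 arrays. Psmc3 stood at 11.44, 11.63, 11.33 and 11.67 on the same arrays, with 11.19 to 11.45 on those 8. Psme4, the subunit of an activator known in mouse for a role in spermatogenesis, stood at 10.69, 10.71, 10.58 and 10.94, with 10.40 to 10.67 on those 8. AL1 thus lay within the range of those 8 for Psma6, Psmc3 and Psme4, and CR1 did for Psmc3. The part of spermatid RNA in these values was not tested. How many of all probe sets have the order of Psmf1 was not counted.

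**Figure D5:**
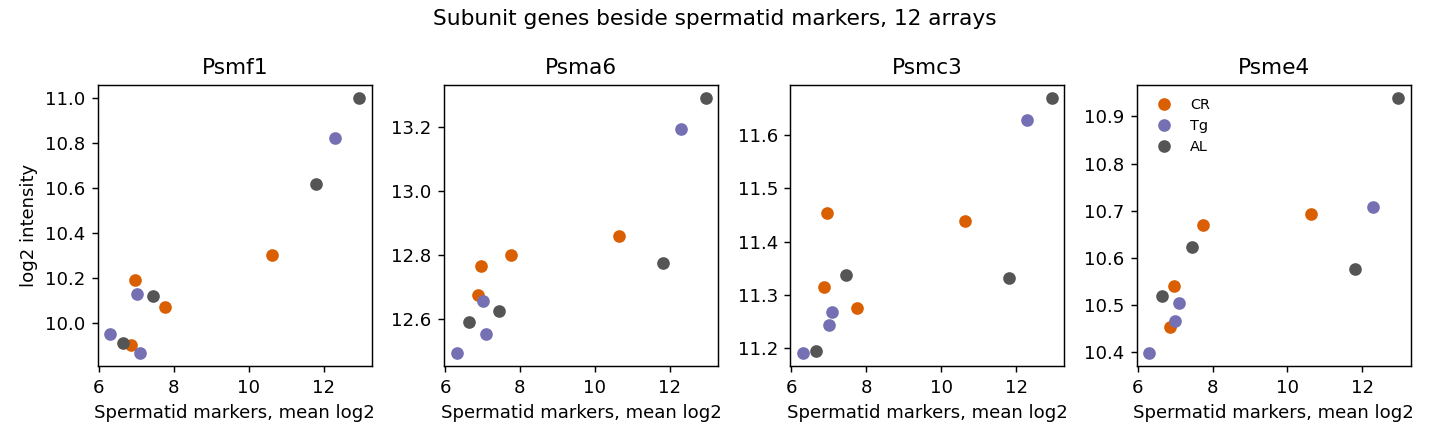
Log2 intensity of Psmf1, Psma6, Psmc3 and Psme4 against the mean log2 level of 8 spermatid markers, with 1 dot per array coloured by group. All 4 panels have their highest dot at AL2, where the markers stand at 12.95, and only Psmf1 has all 4 arrays high in markers above the other 8.

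Promoter windows were available for 40 of the 44 genes. The ISRE letters were found in 7 of the 40 (17.5%; Psma4, Psmb3, Psmb8, Psmb10, Psmd7, Psme2 and Psmg4), against 3.77% of 27457 RefSeq promoters. The antioxidant response element core was found in 7 (17.5%), against 12.2%, the gamma-activated site in 4 (10%), against 8.68%, and CCAAT in 20 (50%), against 37.7%. CCAAT was in 5 of the 6 alpha ring windows. A match describes the letters only.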

How the data were processed

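RNA from epididymal fat was hybridised to 12 Affymetrix arrays, 4 a group. Each probe set has 1 linear intensity per array in the deposited series matrix; column medians are near equal, and the sources used here do not give the authors' summary or scaling. The 12 array files hold a z-score per perfect-match probe, a score deposited by the authors and centred and scaled per array, and a second deposited table gives per-array background, mean and SD, per the file headers. Both were used for the array checks and the z-scores as an alternative. All deposited columns of values used belong to labelled samples.

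Intensities were taken to log2, and the 23281 probe sets whose mean lay above the 25th percentile were tested with limma 3.58.1 in R 4.3.3 (lmFit, eBayes with a mean-variance trend, all 12 arrays, 1 mean per group, two-sided, no covariate). Adjustment (Benjamini-Hochberg) ran over all of them in each comparison, with a threshold of 0.05. The test was checked on simulated data with independent noise, which do not carry the tissue differences between these arrays. Differences are the first-named minus the second-named group, ± SE. Probe sets with several symbols (436) or none (9780) and 57 controls name no gene. Members were read from the platform symbols, and members, lists and settings were chosen with earlier results of these data known. Genes named with values were the catalytic and immunoproteasome genes, the activators, those past the threshold, and per role the genes with the largest positive and negative CR minus AL difference; genes named for non-overlap, dimmer probe sets, spermatid levels or a lost call were named after their values were seen. Array number limits the precision.

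Replicate numbers come from the titles. Same-numbered CR and Tg arrays deviated together (r 0.52, 0.32, 0.47 and 0.62 over all probe sets). The closest Tg array was Tg1 for CR1 and CR3, and Tg4 for CR2 and CR4, so pairs by number are not shown. For CR and AL r was 0.49, -0.32, -0.49 and -0.21, and for Tg and AL 0.25, 0.45, -0.30 and -0.18. The main fit has no block, and the replicate number was used as a block only in alternatives. The alternatives, 24 planned and 1 or 2 added per comparison, were other summaries, normalizations, filters, fits and left-out arrays.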

Additional observations from a re-analysis of the deposited data

Results flagged for a closer look

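In 6 of the 132 gene and group combinations (44 genes, 3 groups), 1 array lay further from the other 3 than Dixon's 95% critical value allows; chance alone gives about 1 in 20 such groups. 2 of these were on CR3, with Psma4, an alpha ring gene, at 11.06 (others at 11.14) and Psmb5 at 12.89 (others 12.24 to 12.33). Psmd11, a lid subunit, stood at 11.12 on CR2 (others 11.16 to 11.17). Psmd2, a cap subunit, stood at 11.57 on Tg4 (others at 11.64). Psma2, an alpha ring gene, stood at 11.89 on AL3 (others 11.72 to 11.73), and Psmg3 at 8.62 on AL2 (others 8.77 to 8.79).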

How the results depend on the processing

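With each array left out in turn, 0 to 0 members passed in every comparison, while over all probe sets 44 (without AL4) to 283 (without CR4) passed for CR against AL, 0 to 2 for Tg against AL, and 40 (without Tg2) to 468 (without CR4) for CR against Tg; member medians ran over 0.06 to 0.09, -0.01 to 0.0045 and 0.07 to 0.11. Members passing numbered 1 with marker covariates in CR against AL (Psmd8, adjusted p = 0.0299), where 1642 of all probe sets passed. In CR against Tg members passing numbered 1 with z-scores, 1 with quantile normalization and 3 with covariates (Psmd8, Psmb7 and Psmb3). Over all probe sets 386, 324 and 1485 passed in these settings, and whether the members differ from them was not tested. Psmd8 passed with z-scores (adjusted p = 0.0467), quantile normalization (0.0401) and covariates (0.0209).

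Probe sets passing for CR against AL were 203 without a filter, 221 without trend, 52 with the 2 groups alone, 150 with the replicate block, 1642 with covariates, 81 without CR3, CR4 and Tg1, and 2 without the spermatid-high arrays; for CR against Tg they were 179 with arrays centred, 189 without trend, 20 with the 2 groups alone, 116 with the replicate block, 95 with it on CR and Tg arrays alone, 1485 with covariates, 76 without CR3, CR4 and Tg1, and 0 without the spermatid-high arrays, and for Tg against AL 2 with z-scores. The member median became 0.12 in CR against AL and 0.12 in CR against Tg with quantile normalization, and -0.032 for Tg against AL without the spermatid-high arrays, a setting chosen after seeing the data. The causes were not tested, and settings that leave out arrays also have fewer arrays to test. The replicate block changed no member's call. Single genes kept their sign in 1042 of 1100 gene and setting combinations for CR against AL, 1016 of 1100 for Tg against AL and 1105 of 1144 for CR against Tg. Several settings leave the estimates unchanged by design, so these counts overstate how steady the signs were. These are the filters, the fit without trend, the 2 groups alone, the replicate block and arrays left out of the third group. Precision is limited by 4 arrays a group and the members' within-group SD (median 0.11).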
